A study of Mus musculus with 6 samples.

Results

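Wnt proteins are secreted, lipid-modified ligands that bind Frizzled (FZD) receptors, and the LRP5 and LRP6 co-receptors join them when the signal runs through β-catenin. In that branch β-catenin is spared from degradation, enters the nucleus and works with the TCF and LEF factors, and *Axin2* is transcribed in response and feeds back to dampen the signal. Secreted frizzled-related proteins (SFRPs), FRZB and WIF1 bind the ligands outside the cell, most Dickkopf (DKK) proteins act on LRP5 and LRP6, and R-spondins keep Frizzled receptors at the cell surface. In adipose tissue Wnt signaling through β-catenin is known for holding back the differentiation of preadipocytes, and *Wnt10b* is the classical ligand of that effect.

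The genes of these ligands, receptors, antagonists and R-spondins were examined in inguinal adipose tissue (iAT) of mice at postnatal day 6. The members were chosen by symbol alone: *Wnt*, *Fzd*, *Sfrp*, *Dkk* and *Rspo* genes with a number, together with *Frzb*, *Wif1*, *Lrp5*, *Lrp6* and *Axin2*. They were 45 of the 19831 listed genes, with 18 ligands, 12 receptors and co-receptors, 10 antagonists, 4 R-spondins and *Axin2*. The samples were 3 wild-type (WT) and 3 Npffr1-KO, which lack neuropeptide FF receptor 1, and the animals of both genotypes were kept SPF. The sample labels name no strain and no sex, nor how the allele was made or in which cells it acts. Nothing states that the 3 samples of a genotype came from separate animals, so the p-values below measure only the spread between these samples.

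The deposited table holds 1 value per gene and genotype, which is a count normalised for library size. The ratio of both values is drawn towards 1 for genes with few reads, and the values carry no SD. Whole reads per library were therefore recovered, starting from the mean of the 2 values, which is the mean over all 6 libraries. Below a mean of 50 this mean alone fixed the reads. From 50 on, several combinations of reads could match it, such as 92 for *Dkk2*, 10329 for *Axin2* and 53947 for *Fzd6*. The choice among them used the ratio of both values and favoured a small spread within genotypes. The SDs and p-values of these genes rest partly on that choice. The libraries are called A, B and C (WT) and D, E and F (Npffr1-KO). They could be tied to a genotype but not to a sample number. Reads were found for 39 members, 28 of which had a mean of 10 to 1000 normalised reads and were tested with limma among 9878 genes. The other 11 of the 39 lay below a mean of 10, and for 6 abundant members (*Fzd1*, *Fzd4*, *Lrp5*, *Lrp6*, *Sfrp2* and *Sfrp4*) only the deposited values are given.

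The libraries were of nearly equal depth, with size factors from 0.917 to 1.04 and 3076667 to 3465795 reads on the 14400 genes whose reads were found. Pairs of libraries correlated at 0.955 to 0.974 within a genotype and at 0.943 to 0.968 between genotypes, across the tested genes, which are not independent replicates. *Npffr1* itself had 5, 0 and 1 reads in libraries A, B and C and 0 in D, E and F, where a count of 0 allows up to 3 reads per library, so the gene was too low to check the labels firmly. The adipocyte genes *Fabp4* and *Adipoq* were among the abundant ones, at 156300 and 37030 in WT. WT library C stood apart in these genes: it was the lowest of the 3 WT libraries for 20 of the 28 tested members, against 34.3% of all tested genes. Where leaving it out moved a printed difference by over 1.5 times, the value without it is given.

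The levels of the members spanned about 4 orders of magnitude per length. On the scale of the deposited WT value per kilobase of gene length, the antagonist *Sfrp2* was highest at 843, followed by *Sfrp4* at 707, the co-receptor *Lrp5* at 661 and the receptor *Fzd4* at 571. Of these, *Sfrp2* reached the 88.4 percentile of all listed genes. The lowest member was *Wnt7b* at 0.0948, the 1.11 percentile. The sum over members per kilobase was 2542 for receptors, 2067 for antagonists, 649 for ligands and 42.6 for R-spondins in WT, and 2137, 1951, 591 and 40.3 in Npffr1-KO. *Sfrp2* and *Sfrp4* together made 75.0% of the antagonist sum in WT.

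**Figure D1:**
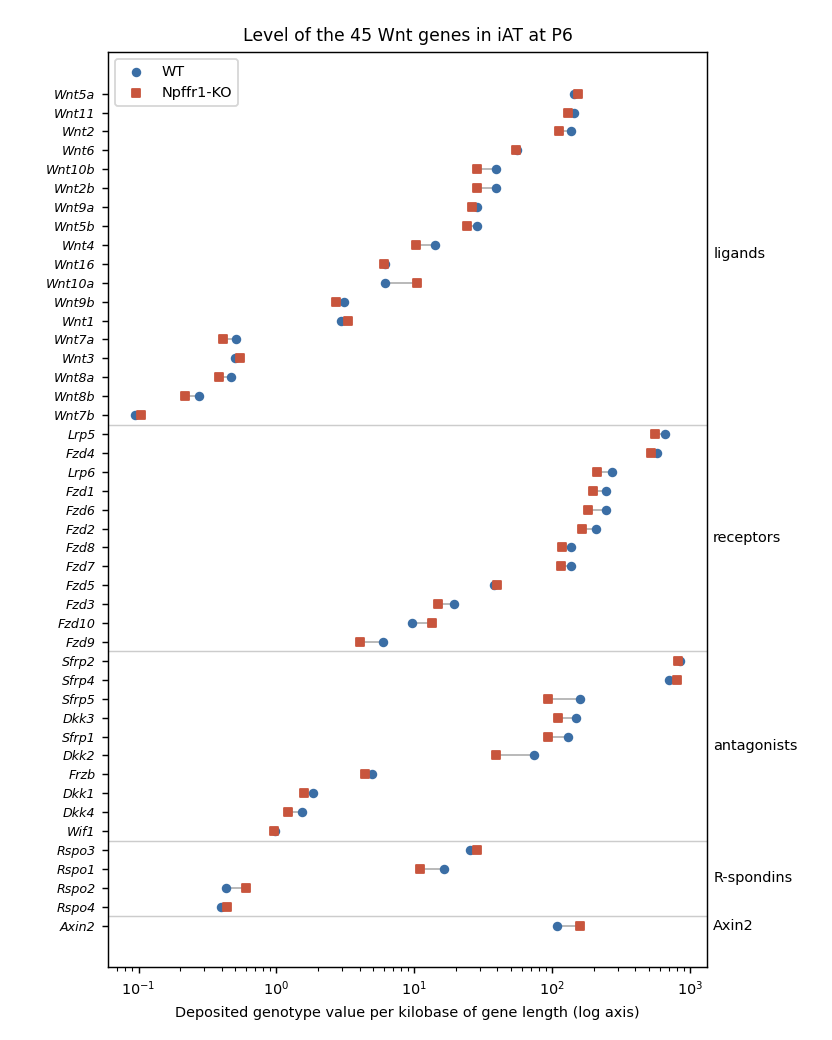
Deposited genotype value per kilobase of gene length (log axis) for the 45 members, grouped by role and ordered within a role by the WT level, with circles for WT and squares for Npffr1-KO. *Sfrp2*, *Sfrp4*, *Lrp5* and *Fzd4* lie farthest to the right, and the ligands *Wnt7a*, *Wnt3*, *Wnt8a*, *Wnt8b* and *Wnt7b* lie below 1.

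The ligands *Wnt5a*, *Wnt11* and *Wnt2* led their group and could not be ranked. The first, best known for signaling outside the β-catenin branch, stood at 144 ± 18.2 normalised reads per kilobase in WT (SD, n = 3). *Wnt11*, another such ligand, stood at 143 ± 22.9, and *Wnt2*, a β-catenin ligand, at 142 ± 93.5, so the differences among them were smaller than the spread between libraries. *Wnt6* followed at 55.8 ± 17.5, below the lowest library of *Wnt5a* and *Wnt11* (126 and 120) but not of *Wnt2* (42.5). *Wnt10b* (40.5 ± 23.7), *Wnt2b* (39.6 ± 11.9), *Wnt9a* (28.7 ± 4.24) and *Wnt5b* (29.0 ± 9.40) came next, each within the spread of its neighbour. *Wnt4*, at 14.5 ± 2.70, was lower than these apart from one library of *Wnt10b* at 13.2, and *Wnt16* (6.13 ± 6.59), *Wnt10a* (5.30 ± 2.30) and *Wnt9b* (3.17 ± 0.864) closed the ligands with a mean of at least 10.

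Among the receptors, *Lrp5* (661) and *Fzd4* (571) stood well above *Lrp6* (269) and *Fzd1* (245) by the deposited WT values per kilobase, for which no spread is known. *Fzd6* at 244 ± 24.2 and *Fzd2* at 208 ± 29.5 normalised reads per kilobase overlapped in their libraries. *Fzd8* (137 ± 12.6) and *Fzd7* (136 ± 24.6) did not differ beyond their spread. *Fzd5* (37.6 ± 1.76), *Fzd3* (19.5 ± 4.10), *Fzd10* (9.12 ± 2.57) and *Fzd9* (6.34 ± 0.951) were lower. Of the other antagonists, *Sfrp5* (161 ± 36.5), *Dkk3* (151 ± 62.8) and *Sfrp1* (130 ± 38.9) overlapped, *Dkk2* stood at 74.0 ± 13.3 and *Frzb* at 5.14 ± 0.683. *Rspo3* (25.1 ± 6.52) and *Rspo1* (17.3 ± 8.39) overlapped too, and *Axin2* stood at 108 ± 5.55.

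A group of 11 members had so few reads that no genotype comparison was possible. In the order A, B, C, D, E and F, the reads were 14, 3, 3, 8, 14 and 2 for *Wnt1* and 0, 5, 2, 0, 1 and 1 for *Wnt7a*. *Wnt3* had 1, 3, 0, 0, 1 and 5, and *Wnt7b* had 2 reads in library E alone. *Wnt8a* had 2 reads each in B and C, and *Wnt8b* had 4 in A and 1 in B, so both were seen in WT libraries only, at a depth where a count of 0 allows up to 3 reads per library. Of the antagonists, *Dkk1* had 9, 1, 4, 4, 1 and 4 reads, *Dkk4* 5, 2, 1, 0, 2 and 1, and *Wif1* 2, 5, 0, 2, 2 and 2. The R-spondins *Rspo2* (0, 0, 1, 4, 5 and 0) and *Rspo4* (1, 1, 0, 0, 2 and 2) were as sparse.

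The genotype comparison asked which Wnt genes differed between the iAT of Npffr1-KO and WT mice. The antagonist *Dkk2* fell, and it was the 1 member of the 28 tested that passed limma's test at an adjusted p under 0.05. Over all 9878 tested genes the same test called 1.31%, with 0.638% lower and 0.668% higher in Npffr1-KO. *Axin2* and *Wnt10a* lay higher in each Npffr1-KO library than in each WT library, and *Fzd6*, *Fzd9*, *Dkk2* and *Sfrp5* lay lower, so the libraries of 6 members did not overlap. Such separation held for 23.7% of all tested genes (12% with Npffr1-KO lower, 11.8% with it higher), and without library C for 19 members against 37.0% of all tested genes. Unadjusted p-values under 0.05 were found for 7 members and for 18.3% of all tested genes. Fewer cells of a type and less RNA per cell cannot be told apart in these bulk samples.

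By the deposited values, 27 of the 34 members with a mean of at least 10 were lower in Npffr1-KO, against 48.8% of all such genes. Their median log2 ratio of Npffr1-KO over WT was -0.24, and that of the 15309 genes was 0.01. Between libraries of 1 genotype the median of the tested members varied by an SD of 0.21 on the log2 scale. That is the spread of single libraries, not of a difference between means of 3 libraries, so it gives only a rough scale for the shift. Over the 28 tested members the median limma difference was -0.29 with all libraries and -0.50 without C. The direction held in 10 of 12 ligands (median -0.17), 10 of 12 receptors (median -0.29), 6 of 7 antagonists (median -0.43) and 1 of 2 R-spondins. The ratio drifted with gene length over all genes, with class medians from 0.27 down to -0.14 in 20 classes of length. After each ratio was centred on its class, 27 members were still lower, against 50% of all genes, and their median was -0.19. A fold of 1.5 was passed upwards by *Wnt10a* (2.78% of all genes passed it) and downwards by *Dkk2*, *Sfrp5* and *Rspo1* (3.12% of all genes). *Fzd9* at a log2 ratio of -0.55 and *Axin2* at 0.54 were just short of it.

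**Figure D2:**
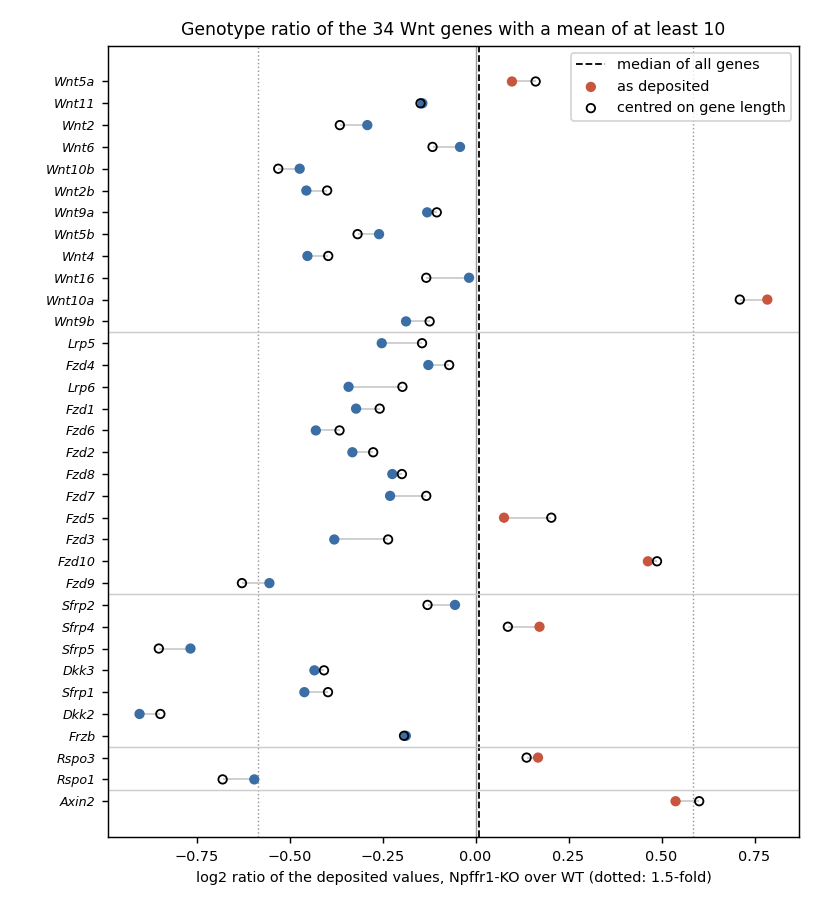
log2 ratio of the deposited values, Npffr1-KO over WT, for the 34 members with a mean of at least 10, as deposited (filled circles, coloured by direction) and centred on genes of like length (open circles), with a dashed line at the median of all genes and dotted lines at a fold of 1.5. Most members lie left of 0 in either form, and *Dkk2*, *Sfrp5* and *Wnt10a* lie farthest out.

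The secreted antagonists held the member with the clearest difference. *Dkk2* encodes a Dickkopf protein that binds LRP6 and acts as an antagonist or weak agonist depending on context. Its normalised reads were 237, 330 and 255 in libraries A, B and C and 142, 122 and 162 in D, E and F, so every Npffr1-KO library lay below every WT library. The mean was 274 ± 49.2 in WT and 142 ± 19.9 in Npffr1-KO (SD, n = 3 each), with a log2 difference of -0.94 ± 0.18 (SE) and an adjusted p of 0.0361 by limma. Leaving out any 1 of the libraries A to F kept the direction (-1.04 to -0.80) but ended the call, with adjusted p-values of 0.0520 to 0.202. The call held with other pseudocounts, filters and scalings.

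*Sfrp5*, a ligand trap known in adipose tissue for opposing WNT5A, showed 286, 383 and 248 normalised reads in WT and 203, 85.8 and 220 in Npffr1-KO. The groups did not overlap, and library E was far below the others. The log2 difference of -0.94 ± 0.31 did not pass the limma test (adjusted p = 0.140) and was -0.51 without library E and -1.18 without F. *Sfrp1*, another ligand trap, had 529, 759 and 425 normalised reads in WT against 452, 464 and 305 in Npffr1-KO. Its libraries overlapped, and its log2 difference was -0.47 ± 0.21 (limma, adjusted p = 0.265). It ranged from -0.25 without library B to -0.66 without C.

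*Dkk3*, a Dickkopf relative whose part in Wnt signaling is unsettled, had 565, 681 and 272 normalised reads in WT and 310, 457 and 326 in Npffr1-KO. Library C lay below all Npffr1-KO libraries, and the log2 difference of -0.39 ± 0.28 became -0.79 without it and -0.13 without B (limma, adjusted p = 0.471 with all libraries). *Frzb* had 15.9, 12.7 and 16.4 against 5.46, 7.06 and 24.1, so 1 of the Npffr1-KO libraries lay above all WT libraries. The leading antagonists *Sfrp2* and *Sfrp4* had deposited values of 1686 and 1258 in WT and of 1623 and 1417 in Npffr1-KO. *Sfrp4* was thus the 1 antagonist with a higher value in Npffr1-KO, at a log2 ratio of 0.17, and it has no test here.

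*Axin2*, the feedback gene of the β-catenin branch, lay on the other side. Its normalised reads were 443, 488 and 455 in WT and 536, 750 and 749 in Npffr1-KO. All Npffr1-KO libraries were above all WT libraries, D the least so. The mean was 462 ± 23.8 in WT and 678 ± 123 in Npffr1-KO, with a log2 difference of 0.54 ± 0.14 and a limma adjusted p of 0.0829, which missed the threshold. Without library D the difference was 0.70 and passed (adjusted p = 0.0230). It was 0.46 without E and 0.46 without F, and did not pass (limma, adjusted p = 0.127 and 0.240). Nor did it pass without A, B or C (adjusted p of 0.140 to 0.277).

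**Figure D3:**
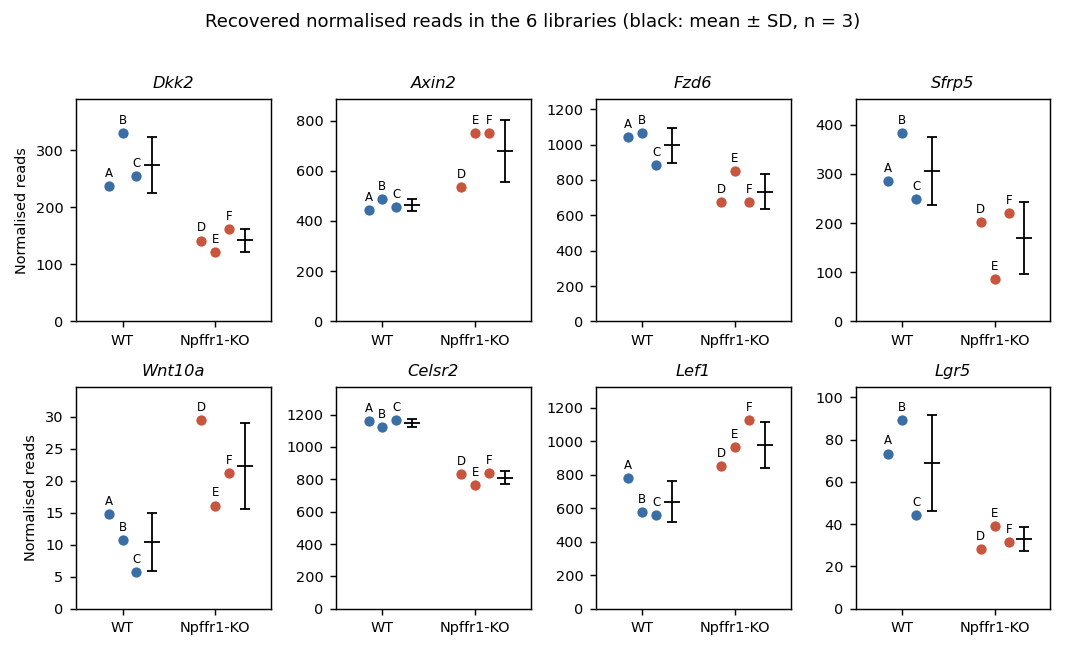
Normalised reads in libraries A, B and C (WT, blue) and D, E and F (Npffr1-KO, red) for 5 members (*Dkk2*, *Axin2*, *Fzd6*, *Sfrp5*, *Wnt10a*) and 3 other pathway genes (*Celsr2*, *Lef1*, *Lgr5*), with the mean ± SD of n = 3 in black. The 8 genes are a selection, and the genotypes do not overlap in any of them. Such separation holds for 6 of the 28 tested members and 23.7% of all tested genes. *Axin2*, *Wnt10a* and *Lef1* are the ones shown in which Npffr1-KO lies higher.

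Of the receptors, *Fzd6*, which is known for planar polarity signaling, had 1043, 1065 and 884 normalised reads in WT and 677, 851 and 678 in Npffr1-KO. Its libraries did not overlap, though E came close to C. The log2 difference was -0.44 ± 0.12 (limma, adjusted p = 0.0862), and without library E it was -0.55 and passed (adjusted p = 0.0383). That fit called 252 of all tested genes in place of 129. Without A, B, C, D or F the difference was -0.53 to -0.39 and did not pass (adjusted p of 0.0823 to 0.365). *Fzd2*, a receptor for WNT5A among others, had 828, 802 and 631 against 609, 642 and 535, with a log2 difference of -0.33 ± 0.13 (limma, adjusted p = 0.204).

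The other tested receptors with overlapping libraries were *Fzd7*, *Fzd8*, *Fzd3*, *Fzd5* and *Fzd10*. *Fzd7* ran from 539 to 777 normalised reads in WT and from 502 to 632 in Npffr1-KO, and *Fzd8* from 414 to 497 and from 345 to 458. *Fzd3* ran from 191 to 294 in WT and from 164 to 210 in Npffr1-KO. *Fzd5*, at 257 ± 11.99 in WT and 271 ± 16.1 in Npffr1-KO, varied least, and the 95% interval of its log2 difference ran from -0.23 to 0.38. *Fzd10* had 21.8, 36.2 and 24.1 against 14.2, 58.5 and 52.0, with Npffr1-KO libraries on both sides of the WT libraries. *Fzd9*, at 11.9, 15.7 and 12.6 in WT and 8.73, 4.04 and 9.64 in Npffr1-KO, did not overlap but was low, with a log2 difference of -0.83 ± 0.52 (limma, adjusted p = 0.410) that was -0.49 without E.

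The abundant receptors without reads per library all had lower deposited values in Npffr1-KO. The co-receptors had values of 3421 in WT and 2872 in Npffr1-KO for *Lrp5* and of 2523 and 1991 for *Lrp6*, with log2 ratios of -0.25 and -0.34. Centred on genes of like length, these became -0.14 and -0.20. *Fzd4*, which also serves as the receptor for norrin in vessels, had 2102 and 1925 (log2 ratio -0.13), and *Fzd1* had 1076 and 861 (-0.32). Beside these, the 4 endothelial markers *Pecam1*, *Cdh5*, *Kdr* and *Cldn5* were all lower in Npffr1-KO by the deposited values, with log2 ratios of -0.44 to -0.28. The 3 mural markers (-0.55 to -0.12), both Schwann cell markers (-0.67 and -0.48) and 8 of 10 markers of adipocyte progenitors and fibroblasts (median -0.16) were lower as well. The skeletal muscle markers moved the other way, with 4 of 4 above a mean of 10 higher (sum over the 5 markers 353 in WT and 698 in Npffr1-KO). No reads per library were found for these 4, so they were not tested and their spread is unknown. *Lep*, an adipocyte gene, was higher too (4210 and 8703), while the 8 adipocyte markers had a median log2 ratio of 0.12. The part of all these markers in the member values was not tested.

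No ligand passed the test. *Wnt10a*, a β-catenin ligand related to *Wnt10b*, had 14.9, 10.8 and 5.80 normalised reads in WT and 29.5, 16.2 and 21.2 in Npffr1-KO. All Npffr1-KO libraries lay above all WT libraries, A and E nearly touching. The log2 difference was 1.06 ± 0.47 (limma, adjusted p = 0.251), and 0.73 without C. The deposited ratio, drawn towards 1, gave a fold of 1.72. The summed normalised reads of 6 epithelial markers ran from 50.2 to 72.5 in WT and from 55.6 to 91.5 in Npffr1-KO, and those of 6 skin and hair markers from 76.3 to 109 and from 68.6 to 118. Every library held reads of *Krt10* (78, 99, 67, 72, 60 and 80 in A to F) and *Epcam* (25, 36, 25, 28, 33 and 49). *Krt18* had 22, 20, 16, 14, 28 and 10. Among the sparser others, *Krt5* had reads only in A and F (11 and 21), and *Krt14* had 6, 0, 0, 1, 1 and 11. *Krt25* had 2, 4, 3, 3, 0 and 28, and *Elf5* and *Krt15* had at most 1 read in a library.

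None of the leading ligands showed a separation of the genotypes. *Wnt5a* had 490, 631 and 554 normalised reads in WT and 667, 541 and 590 in Npffr1-KO, and the 95% interval of its log2 difference was -0.18 to 0.39. *Wnt11* had 469, 405 and 340 against 316, 362 and 416, with an interval of -0.49 to 0.20. *Wnt2* had 481, 333 and 89.8 in WT against 244, 246 and 177 in Npffr1-KO, so library C lay below all others and the WT libraries spread more than 5-fold. The log2 difference of *Wnt2*, -0.14 ± 0.46 with all libraries, was -0.86 without library C and 0.35 without library A, and its 95% interval of -1.14 to 0.85 left the direction unresolved. *Wnt10b* showed the same low library C, with 122, 124 and 29.9 against 56.7, 81.8 and 45.3, and its log2 difference of -0.37 ± 0.46 (limma, adjusted p = 0.705) became -1.04 without C but -0.04 without A and -0.03 without B.

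For the other ligands the WT and Npffr1-KO libraries overlapped. *Wnt2b* had 178, 152 and 94.6 normalised reads against 84.0, 118 and 98.3 (log2 difference -0.46 ± 0.25, limma adjusted p = 0.345), and the difference was -0.72 without C and -0.27 without A. *Wnt4* had 67.5, 49.9 and 49.3 against 29.5, 24.2 and 60.7, and library F alone reached the WT range (-0.63 ± 0.35, limma adjusted p = 0.354). Its difference was -1.01 without F and -0.37 without E. *Wnt6* ran from 74.4 to 143 in WT and from 105 to 118 in Npffr1-KO, *Wnt9a* from 79.2 to 105 and from 64.6 to 101, and *Wnt5b* from 41.5 to 82.4 and from 43.6 to 56.5. *Wnt16* (0 to 21.8 in WT, 3.86 to 16.2 in Npffr1-KO) and *Wnt9b* (9.92 to 17.4 and 2.89 to 21.2) were too sparse and too variable for a direction.

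Of the R-spondins, *Rspo3* had 74.4, 63.6 and 43.5 normalised reads in WT and 73.1, 72.7 and 60.7 in Npffr1-KO, a log2 difference of 0.21 ± 0.26 (limma, adjusted p = 0.692) that was -0.0050 without C. *Rspo1* had 29.8, 47.97 and 17.4 against 17.5, 15.1 and 23.1. It passed a fold of 1.5 by the deposited values (30.3 and 20.03), but its libraries overlapped and its log2 difference was -0.65 ± 0.41 (limma, adjusted p = 0.419). That difference was -0.30 without B and -1.01 without C.

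**Figure D4:**
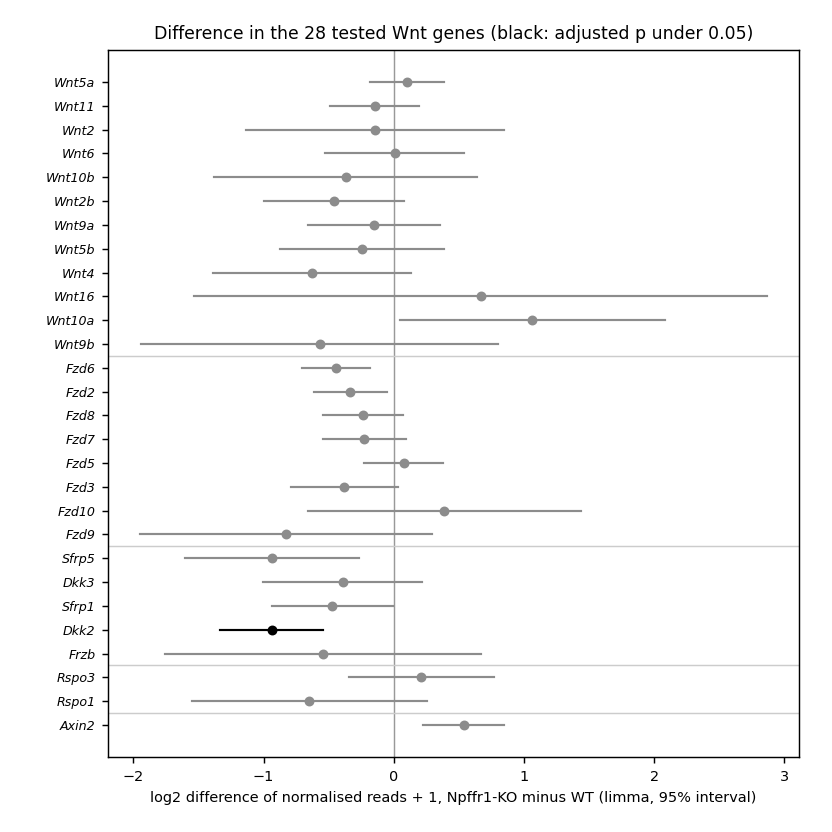
log2 difference of normalised reads + 1, Npffr1-KO minus WT, with its 95% interval from limma for the 28 tested members, in black where the adjusted p was under 0.05. *Dkk2* is the black one, and the intervals of *Axin2*, *Fzd6*, *Fzd2*, *Sfrp5*, *Sfrp1* and *Wnt10a* also leave out 0 before adjustment.

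Between genotypes, a list of 56 further genes of the pathway was compared too, and 31 could be tested. 1 of them fell in Npffr1-KO at an adjusted p under 0.05 and none rose, against 0.638% and 0.668% of all tested genes. By the deposited values 38 of the 53 with a mean of at least 10 were lower, against 48.8% of all genes. Their median log2 ratio was -0.15, against 0.01 over all genes. Unlike those of the members, the counts and medians of this list were not also centred on gene length. Centring on genes of like length raised long genes, such as *Celsr2* (-0.49 to -0.35) and *Prickle2* (-0.59 to -0.45). It lowered short ones, such as *Porcn* (-0.17 to -0.26). The gene that fell was *Celsr2*, a cadherin of planar cell polarity, with 1158, 1123 and 1164 normalised reads in WT and 830, 763 and 840 in Npffr1-KO. Its genotypes did not overlap, with a log2 difference of -0.50 ± 0.09 (limma, adjusted p = 0.0298). At its mean the choice of reads favoured a small spread within genotypes, so this SE and p-value rest partly on that choice. Leaving out 1 library kept the difference at -0.53 to -0.46, and the call ended without A, B, C or F (adjusted p of 0.0628 to 0.151). In the same group *Prickle2* had 414, 460 and 415 against 309, 282 and 255 and just missed the threshold (-0.61 ± 0.13, limma adjusted p = 0.0512). It passed narrowly without D (adjusted p = 0.0492). So it did with a pseudocount of 5, a minimum mean of 25, quantile normalisation or equal totals (0.0471 to 0.0489). Under the other settings, or without A, B, C, E or F, it did not pass (0.0511 to 0.277). 7 of the 9 planar polarity genes were lower by the deposited values, without centring on gene length. The formin *Daam2* was the most abundant of the 9, at 1869 in WT and 1490 in Npffr1-KO.

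Among 12 other receptors and ligases none passed the test, and 9 were lower by the deposited values. *Lgr5*, an R-spondin receptor, had 73.4, 89.1 and 44.4 normalised reads in WT and 28.4, 39.4 and 31.8 in Npffr1-KO, with no overlap (log2 difference -0.99 ± 0.31, limma adjusted p = 0.121). *Lgr6*, its relative, had 9.92, 9.79 and 0.966 in WT against 55.6, 6.06 and 31.8 in Npffr1-KO, so library E went against D and F (1.94 ± 0.84, limma adjusted p = 0.245, from 1.12 to 2.81 with 1 library left out). *Ror1*, a WNT5A receptor, had 269, 275 and 181 against 140, 177 and 152, a log2 difference of -0.61 ± 0.20 (limma, adjusted p = 0.133). *Ryk* and *Kremen1* were the most abundant of the group, at 2174 and 818 in WT and 2136 and 764 in Npffr1-KO.

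Of the 12 nuclear genes 7 were lower by the deposited values, with a median log2 ratio of -0.20 that is not centred on gene length. *Lef1*, which encodes a partner of β-catenin and is itself a Wnt target, had 783, 579 and 557 normalised reads in WT and 851, 965 and 1124 in Npffr1-KO. The genotypes did not overlap, and the log2 difference of 0.62 ± 0.14 missed the threshold (limma, adjusted p = 0.0619). *Tcf7*, its relative, had deposited values of 2648 and 3841, and *Tle3*, a co-repressor, of 3210 and 3347. The other TCF genes were lower, *Tcf7l1* at 3293 and 2615 and *Tcf7l2* at 1147 and 979. Of the 7 reported targets with a mean of at least 10, 4 were higher in Npffr1-KO. *Myc* had 1411 and 1884, and *Ccnd1* had 3510 and 3634. The 3 lower ones were *Lgr5* (66.7 and 35.4), *Nkd2* (117.5 and 105.2) and the feedback inhibitor *Nkd1* (750 and 723). Of the 7, *Lgr5* had the log2 ratio farthest from 0, at -0.91. *Sp5* and *Notum* lay below a mean of 10. *Lef1* and *Tcf7* are also T cell genes, and all 5 lymphocyte markers had higher deposited values in Npffr1-KO, summing to 8912 in WT and 11600 in Npffr1-KO. *Cd3e*, the 1 marker among them that could be tested, rose (633 and 986 by the deposited values, log2 difference 0.65 ± 0.12, limma adjusted p = 0.0298), though not without A, B, C or F (adjusted p of 0.0593 to 0.151), and its part in the *Lef1*, *Tcf7* and *Axin2* values was not tested.

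The remaining steps of the pathway showed no call. *Wls* and *Porcn*, which secrete and lipidate Wnt proteins, had deposited values of 1562 and 216 in WT and 1412 and 192 in Npffr1-KO. Of the 10 cytoplasmic genes 9 were lower, led in abundance by *Ctnnb1*, the β-catenin gene (11120 and 10110), and by *Gsk3a*, a kinase of the destruction complex (3233 and 3599), the 1 that was higher. *Dvl2*, the tested gene among them, had a log2 difference of -0.19 ± 0.11 (limma, adjusted p = 0.380). Its relative *Dvl3* had the log2 ratio farthest from 0 among the 10, at -0.55 (929 and 636), and has no test here. The other antagonists with a mean of at least 10 were 2 lower and 2 higher (median -0.02). *Apcdd1*, a membrane-bound inhibitor, had 3650 and 2765, and *Sostdc1*, a secreted one, 354 and 265, with overlapping libraries, and *Dkkl1* (35.2 and 45.2) and *Draxin* (26.5 and 36.1) were the higher ones.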

How the data were processed

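RNA sequencing of iAT from 3 WT and 3 Npffr1-KO samples at postnatal day 6 was used. The submitters' processing notes name Bowtie2, RSEM and DESeq2, and the genome build is not given in the sources used here. The authors deposited 1 normalised signal per gene and genotype and the gene length in bases. Their fold change, p-value and adjusted p-value columns were not used, nor was a second table holding a subset of genes.

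The mean of both deposited values is a sum of whole reads weighted by 6 size factors, which genes with a single read reveal together with the genotype of each library. Combinations of whole reads were searched within a window around the mean. Below a mean of 50, 1 combination had to be left. Up to 1000, a combination needed 99% of the weight and a predicted ratio within 1e-4 (log2) of the deposited one. The weight drew on the fit to that ratio and on the spread of reads within genotypes, with a small spread favoured. The SDs and p-values of genes from a mean of 50 on therefore rest partly on this assumption. This read all 4522 genes below a mean of 10 and 9878 of 10026 (98.5%) from 10 to 1000. As a check, the deposited ratio was predicted for 98.7% of 2067 genes read from the mean alone, though the constants of the prediction were fitted on some of these genes. Tested on simulated data, 745 of 778 genes were read, and all 745 were right. The simulated reads were drawn from the same model, so errors where the real spread departs from it could not show. For genes of 1000 and more, depth per library is unknown.

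limma 3.58.1 (R 4.3.3, Python 3.11.15) tested log2(normalised reads + 1) with a trended prior over the 9878 genes, with Benjamini-Hochberg adjustment and a threshold of 0.05. Fold changes on this scale understate low genes. In the self-test on 9632 genes, 37 of 100 changed by 1 (log2) were called, 7 of 100 changed by 0.585, and 1 unchanged gene. An exact permutation test of 3 against 3 cannot go below 0.10. Limits at 0 reads cover counting error only.

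Full values are given for members past a fold of 1.5, called by limma, or among the 4 highest per length in a role, and for *Axin2*, *Lrp5* and *Lrp6*. Of the other pathway genes, those past a fold of 1.5, those called and up to 2 abundant ones per group are named. *Myc*, *Nkd1*, *Nkd2*, *Sp5*, *Notum*, *Dvl2*, *Dvl3*, *Tcf7l1*, *Tcf7l2*, *Dkkl1* and *Draxin* were added after their values were seen. Members and lists were chosen with earlier results of these data known. Alternatives were other thresholds, minimums, pseudocounts, scalings, centrings and leaving out each library.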

Additional observations from a re-analysis of the deposited data

How the results depend on the processing

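No paired analysis was possible because the recovered libraries carry no replicate numbers. Under pseudocounts of 0.5 and 5, minimum means of 1 and 25, a robust prior, voom weights, quantile normalisation and equal totals, *Dkk2* stayed the 1 member called. Leaving out 1 library gave 0 to 1 called members: none without A, B, C or F, *Axin2* without D and *Fzd6* without E. These fits have fewer samples, and over all genes they called 12 (without B) to 252 (without E) in place of 129. Members past the fold limit numbered 4, while 2.78% of all genes passed it upwards and 3.12% downwards. They numbered 16 at a lower limit on the fold (3 higher, 13 lower) and 0 at a fold of 2. At a minimum mean of 50 they numbered 2 (0 higher), and centred on gene length 6, 2 of them higher. The shares over all genes at these other settings were not worked out. The median log2 difference of the 28 tested members, -0.29, ranged from -0.50 (without C) to -0.16, and 18 to 23 members were lower, against 20 with all libraries. The members whose genotypes did not overlap numbered 6 with all libraries (23.7% of all tested genes) and 19 without C (37.0%). With any other library left out they numbered 6 to 9, against 29.3% to 39.3% of all tested genes. These 3 leave-one-out checks, and those of the other pathway genes and *Cd3e*, were chosen after seeing the data. The sign of uncalled members turned with the library left out for *Rspo3* (-0.0050 to 0.38), *Wnt16* (-0.63 to 1.62), *Wnt2* (-0.86 to 0.35), *Wnt6* (-0.28 to 0.19), *Wnt9a* (-0.28 to 0.044) and *Wnt9b* (-1.14 to 0.12). *Wnt6* was also at -0.012 with equal totals. The causes were not tested. The 10 highest members per length shared 8 with the order by the Npffr1-KO value and 8 with the order not divided by length. The 3 libraries per genotype and 1 pooled value for the 6 most abundant members limit what could be called.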
